A study of Mus musculus with 10 samples.

Results

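The sarcomere and Z-disc genes described here are 36 genes that encode proteins of the contractile unit of heart muscle: 9 of the thick filament, 10 of the thin filament, 4 of titin and the M-band, and 13 of the Z-disc. They were chosen by name among 19938 genes whose probe sets carried exactly 1 gene symbol on the array, and all 36 were measured. Transcript levels came from Affymetrix arrays, as log2 intensities, in male C57BL/6 mice at 3 months of age that had received no treatment. The groups were ventricular cardiomyocytes of VAChT KD mice (3 arrays) and of WT mice (3 arrays), and whole hearts of VAChT KD mice (2 arrays) and of WT mice (2 arrays). VAChT, encoded by Slc18a3, is the transporter that fills synaptic vesicles with acetylcholine, and KD stands for a knockdown of it, whose allele the labels do not describe. Each array held a pool of 2 RNA samples. No label says more about whether arrays came from different animals, so a p-value here reflects only how far these arrays differ, which may be technical.

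A sarcomere runs from one Z-disc to the next. Thick filaments of myosin pull on thin filaments of actin, and calcium binding to troponin moves tropomyosin and opens the actin sites to myosin. Titin spans from the Z-disc to the M-band, where myomesins cross-link the thick filaments, and alpha-actinin anchors thin filaments in the Z-disc. Heart muscle uses cardiac or ventricular isoforms of most of these proteins, while slow and fast skeletal muscle have their own troponins and light chains.

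The targeted gene was not lower in KD: Slc18a3 differed, KD minus WT, by 0.16 (SE 0.16) in cardiomyocytes and 0.05 (SE 0.19) in hearts, with an adjusted p from limma of 1 in both. Where its probes lie relative to the knockdown allele is not stated in the labels, so the array cannot check the genotype labels. Among the heart arrays, KD replicate 1 was unlike the rest. The mean of 12 thymocyte markers there was 2.80 above the WT heart mean on the log2 scale, against 0.06 above it in KD heart replicate 2 and -0.15 and 0.15 in the WT hearts. Rag1, a recombinase gene of developing lymphocytes, read 11.68 and 6.73 in KD hearts, against 6.51 and 6.60 in WT hearts. The heart values of the members described array by array are therefore given without that array too. In cardiomyocytes the thymocyte mean lay between -0.10 and 0.04 in every array. Myl2 and Tnnt2, which define ventricular and heart muscle, read above 13 in all 10 arrays. In samples of bulk RNA, fewer cells of a type and less RNA per cell cannot be told apart.

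The start regions of 4 members are shown because Mylk4 and Mybpc3 had the smallest p-values of the thick filament genes in hearts, and because Actc1 and Tnnt2 are thin filament genes whose regions hold other muscle motifs. RefSeq regions on GRCm38.p6, from 250 bases before to 50 after an annotated start, were given for 30 of the 36 members, 41 regions in all. Capitals mark the matches to any of 5 motifs searched on both strands: the CArG box, the MEF2 site, the M-CAT motif, the TATA box and a GATA site. For M-CAT the letters were CATTCC. For the TATA box they were TATAAA. For the GATA site they were GATAAG. Positions are counted along the gene's strand from the annotated start as 0.
Mylk4, chr13:32783915-32784214, minus strand, with a MEF2 site at -103 to -94: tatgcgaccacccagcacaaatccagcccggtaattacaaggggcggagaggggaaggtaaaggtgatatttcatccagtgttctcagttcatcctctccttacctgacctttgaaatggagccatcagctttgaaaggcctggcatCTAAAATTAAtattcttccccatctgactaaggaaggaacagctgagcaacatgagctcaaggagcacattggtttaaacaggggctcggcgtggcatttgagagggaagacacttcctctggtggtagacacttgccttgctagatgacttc
Mybpc3, chr2:91117894-91118193, plus strand, with a MEF2 site at -90 to -81 and a GATA site at -60 to -55: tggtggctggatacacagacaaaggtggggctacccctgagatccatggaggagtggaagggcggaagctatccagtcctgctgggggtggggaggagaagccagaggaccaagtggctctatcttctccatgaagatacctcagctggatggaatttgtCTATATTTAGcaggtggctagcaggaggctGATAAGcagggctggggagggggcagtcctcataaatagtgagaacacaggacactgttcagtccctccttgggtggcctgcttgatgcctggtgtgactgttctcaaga
Actc1, chr2:114052826-114053125, minus strand, with a CArG box at -47 to -38 and a TATA box at 33 to 38: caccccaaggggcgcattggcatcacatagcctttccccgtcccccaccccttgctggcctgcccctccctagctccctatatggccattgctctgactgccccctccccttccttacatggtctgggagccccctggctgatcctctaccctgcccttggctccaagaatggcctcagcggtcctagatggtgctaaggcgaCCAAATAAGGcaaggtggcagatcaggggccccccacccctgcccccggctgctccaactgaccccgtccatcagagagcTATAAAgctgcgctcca
Tnnt2, chr1:135836084-135836383, plus strand, with M-CAT at -27 to -22: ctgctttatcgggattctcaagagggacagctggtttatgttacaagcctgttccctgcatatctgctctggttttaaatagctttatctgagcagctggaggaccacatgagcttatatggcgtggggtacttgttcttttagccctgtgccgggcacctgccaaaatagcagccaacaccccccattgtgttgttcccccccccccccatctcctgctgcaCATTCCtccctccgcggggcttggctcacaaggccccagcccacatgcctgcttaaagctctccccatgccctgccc

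A CArG box, the letters bound by serum response factor, stood in 14.6% of the members' regions and in 1.6% of all 32851 regions. The members holding one were Actc1, Ldb3, Myl3, Myom1 and Nebl. A MEF2 site stood in 17.1% of the members' regions and 3.2% of all, in Mybpc3, Mylk4, Myom3, Myoz2, Synpo2l and Ttn. M-CAT was in 29.3% against 14.7%, the TATA box in 17.1% against 13.6%, and the GATA site in 12.2% against 7.4%. Some regions of 1 gene overlap, as those of Ldb3 do, so a site can count more than once. Counted by gene, the shares of the 30 members and of all genes were 16.7% and 1.8% for the CArG box and 20.0% and 3.7% for MEF2. They were 36.7% and 16.6% for M-CAT, 23.3% and 15.7% for the TATA box, and 16.7% and 8.6% for the GATA site. No 2 of these motifs overlapped in a member's region. Tnnt2 has a second annotated region, not printed, which held none of the 5 motifs. Of the members with a MEF2 site, Myom3 and Synpo2l were higher in KD hearts and the other 4 lower, by values given with each gene. A match is a string of letters only, and genes without one in the region may hold it elsewhere.

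In isolated cardiomyocytes the sarcomere genes lay at nearly the same level in KD and WT. Of the 36 members 17 were higher in KD and 19 lower. Their median difference was -0.0028 on the log2 scale, against -1e-04 over all genes. The differences ran from -0.31 (Pdlim3) to 0.17 (Tcap). Within 0.1 of no difference were 28 of 36, as were 13479 of all 19938 genes. None of the 36 passed limma's test (adjusted p of 1 for each, Benjamini-Hochberg over all genes), where 0% of all 19938 genes passed. At an unadjusted p under 0.05, 0 members were higher and 0 lower, where 0.988% of all genes were higher and 1.11% lower. In 4 members (11.1%) every KD array lay above every WT array, as in 2.99% of all genes, and in 0 members every KD array lay below, as in 3.21%. Those 4 were Tnni3, Myom3, Tcap and Csrp3, of which Myom3 was dim, near the middle of all genes in each array. The 95% interval of a member's difference reached a median of 0.24 to either side, a 1.18-fold difference, and lay wholly within 0.5 of zero for 33 members. The members' SD within a genotype had a median of 0.098, against 0.131 over all genes.

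In whole hearts more members were lower than higher in KD, and none passed the test. Of the 36 members 29 were lower and 7 higher, a share lower of 80.6% against 47.4% of all genes, and the median difference was -0.09 against 0.0076 over all genes. After quantile normalization of all arrays 22 were lower and 14 higher, with a median of -0.03. The differences ran from -0.72 (Mylk4) to 0.17 (Myot). The smallest adjusted p from limma was 0.713, for Mylk4, and 0% of all genes passed. At an unadjusted p under 0.05, 4 members were lower (Mylk4, Mybpc3, Myom2 and Tpm1) and 0 higher, where 2.49% of all genes were lower and 2.44% higher. In 12 members the KD pair was below the WT pair (33.3%), as in 15.4% of all genes, and in 0 members above it, as in 14.2%. The interval of a difference reached a median of 0.29 to either side, a 1.23-fold difference.

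The 2 KD hearts did not place the members alike. KD heart replicate 1 lay below both WT hearts in 28 members (77.8%, against 42.1% of all genes) and above both in 0. KD heart replicate 2 lay below both in 14 members (38.9%, against 30.5% of all genes) and above both in 12 (33.3%, against 45.8%). The mean of the 36 members, relative to the WT heart mean, was -0.19 and -0.04 in the KD hearts, against 0.03 and -0.03 in the WT hearts. Without KD heart replicate 1, the array with the thymocyte signal, 19 members were lower and 17 higher and the median was -0.02. Without KD heart replicate 2 they were 34 and 2, with a median of -0.19. How far the thymocyte signal bears on the members' levels was not tested.

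**Figure D1:**
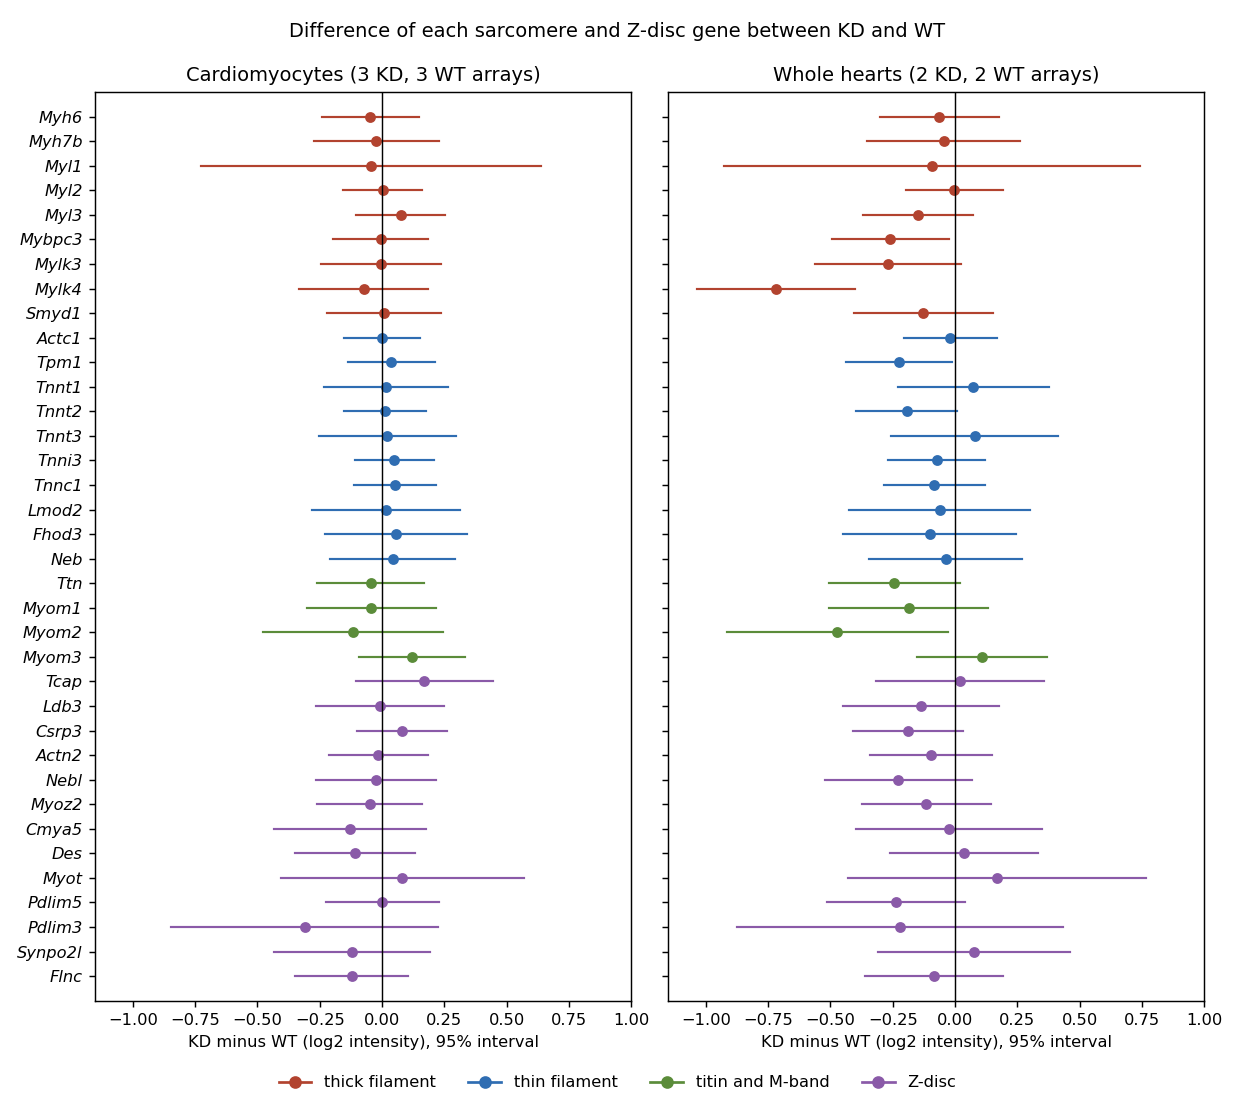
Difference between KD and WT (log2 intensity, KD minus WT, horizontal axis) for each of the 36 members, grouped and coloured by filament, in cardiomyocytes (left) and whole hearts (right); points are fitted differences and bars their 95% limma intervals. Cardiomyocyte points lie close to zero, while in hearts 29 of 36 lie to its left, with Mylk4 at -0.72 and Myom2 at -0.47.

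All 9 thick filament genes lay within 0.1 of no difference in cardiomyocytes, as did 13479 of all 19938 genes, and all 9 were lower in KD hearts. Their median difference was -0.0057 in cardiomyocytes, where 6 of 9 were lower, and -0.13 in hearts, or -0.10 without KD heart replicate 1. Mylk4, a kinase of the myosin light chain kinase family, stood out in hearts. It read 9.78 and 9.72 in KD hearts, against 10.69 and 10.25 in WT hearts. Both KD hearts lay below both WT hearts, although the WT hearts lay well apart from each other. KD hearts averaged 9.75 ± 0.045 and WT hearts 10.47 ± 0.31 (SD, n = 2 each). The difference was -0.72 (SE 0.15, 95% interval -1.03 to -0.40), or 1.64-fold lower in KD. That SE rests on 1 spread shared with the cardiomyocyte arrays. The SD of Mylk4 within a genotype was 0.098 in cardiomyocytes and 0.22 in hearts, so its interval and p are not measures of the hearts' spread alone. Its unadjusted p from limma was 0.000308, place 8 among the 19938 genes, and its adjusted p 0.713, so the difference did not pass. It was -0.75 without KD heart replicate 1, -0.69 without KD heart replicate 2, -0.50 without WT heart replicate 1 and -0.94 without WT heart replicate 2, with an adjusted p from limma of 0.118 at the lowest.

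In cardiomyocytes Mylk4 showed no such gap. It read 10.34, 10.19 and 10.22 in KD cells, against 10.28, 10.24 and 10.45 in WT cells. The groups overlapped, and the difference was -0.07 (SE 0.12, interval -0.33 to 0.19). Mylk3, the cardiac kinase that phosphorylates the ventricular regulatory light chain, differed by -0.27 (SE 0.14) in hearts, with -0.38 without KD heart replicate 1 and -0.10 without WT heart replicate 1, and by -0.0056 (SE 0.11) in cardiomyocytes. Mybpc3, cardiac myosin-binding protein C, which braces the thick filament and tunes its myosin heads, read 12.53 and 12.56 in KD hearts, against 12.92 and 12.68 in WT hearts. Both KD values were below both WT values, by -0.26 on average (SE 0.11, interval -0.49 to -0.03), by -0.25 without KD heart replicate 1 and by -0.14 without WT heart replicate 1. In cardiomyocytes it differed by -0.0057 (SE 0.088).

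The ventricular myosin chains differed less. Myh6, the alpha myosin heavy chain of the adult mouse ventricle, differed by -0.05 (SE 0.090) in cardiomyocytes and -0.06 (SE 0.11) in hearts. Myl2, the ventricular regulatory light chain, read 13.25, 13.23 and 13.23 in KD cells, against 13.27, 13.23 and 13.21 in WT cells. In hearts it read 13.54 and 13.64 in KD, against 13.62 and 13.57 in WT. The genotypes overlapped in both kinds of sample, and in hearts the interval of the difference ran from -0.20 to 0.19, with 0.05 without KD heart replicate 1. Myl3, the ventricular essential light chain, read 13.14, 13.14 and 13.19 in KD cells, against 13.16, 13.14 and 12.94 in WT cells, which overlapped. In hearts it read 13.18 and 13.17 in KD, below the 13.34 and 13.31 of WT, a difference of -0.15 (SE 0.10), also without KD heart replicate 1.

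Myl1, a light chain of fast skeletal muscle, was the member that varied most among cardiomyocyte arrays. It read 7.998, 8.88 and 9.83 in KD cells, against 8.81, 8.85 and 9.18 in WT cells. The KD arrays lay on both sides of the WT arrays, so the pooled SD was 0.66 and the difference of -0.04 had an interval from -0.73 to 0.64. Acta1, skeletal alpha actin and no member, varied widely there too, at 9.46, 9.98 and 11.58 in KD cells, against 11.60, 10.43 and 10.39 in WT cells. The list of 17 skeletal muscle markers had array means of -0.16, 0.03 and 0.12 in KD cells, against -0.04, 0.07 and -0.03 in WT cells, relative to the WT mean. Smyd1, a methyltransferase that acts in thick filament assembly, differed by 0.0078 (SE 0.11) in cardiomyocytes and -0.13 (SE 0.13) in hearts. Myh7b, a further striated muscle myosin heavy chain, differed by -0.02 (SE 0.12) and -0.05 (SE 0.14).

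The atrial light chains, which are not members, did vary. Myl7, the atrial regulatory light chain, read 8.73, 7.35 and 7.70 in KD cells, against 9.38, 9.64 and 6.33 in WT cells, although the cells are labelled ventricular. In hearts it read 10.77 and 9.53 in KD, against 11.15 and 10.87 in WT. Over 10 atrial markers the array means were 0.10, -0.30 and -0.15 in KD cells, against 0.30, 0.32 and -0.62 in WT cells, relative to the WT mean. In hearts they were -0.24 and -0.73 in KD, against 0.03 and -0.03 in WT. WT cardiomyocyte replicate 3 had the lowest atrial mean, and without it the members' median in cardiomyocytes was 0.02, with 15 lower and 21 higher. The part of atrial content in the members' values was not tested.

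**Figure D2:**
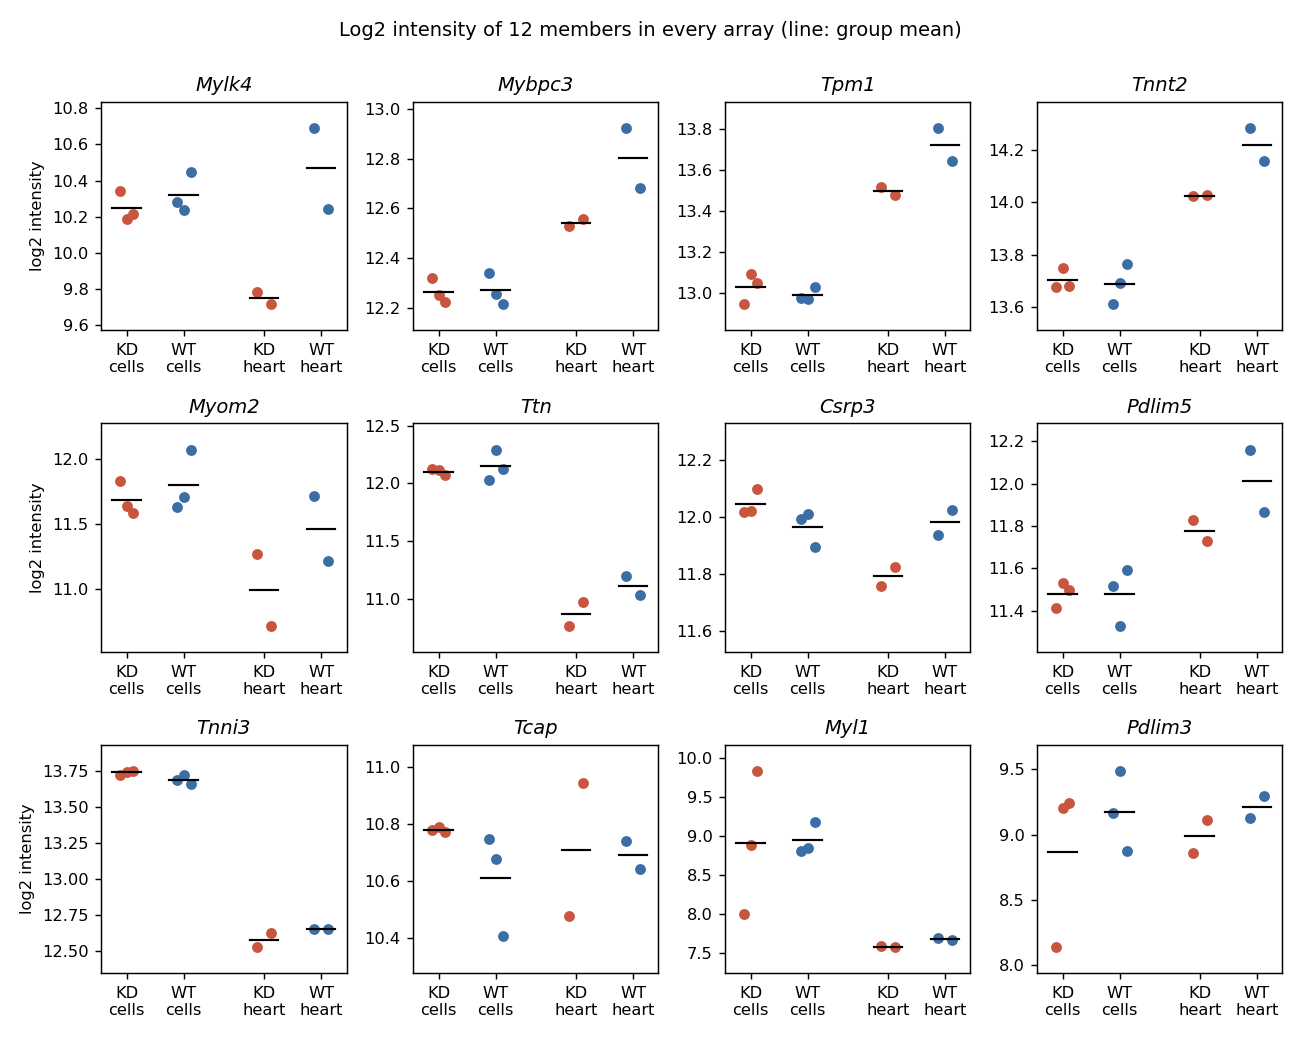
Log2 intensity (vertical axis, a separate scale in each panel) of 12 members in every array, with KD (red) left of WT (blue), for cardiomyocytes and for whole hearts; each point is 1 array and each line a group mean. Mylk4, Mybpc3, Tpm1 and Tnnt2 have both KD hearts below both WT hearts, while their cardiomyocyte arrays overlap.

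All 10 thin filament genes lay within 0.1 of no difference in cardiomyocytes, as did 13479 of all 19938 genes. Of the 10, 9 were higher and 1 lower in KD cells, with a median of 0.03. In hearts 8 of 10 were lower in KD, with a median of -0.07, and without KD heart replicate 1 that median was 0.02. Actc1, cardiac alpha actin, read 13.91, 13.90 and 13.92 in KD cells, against 13.85, 13.90 and 13.98 in WT cells. In hearts it read 14.55 and 14.59 in KD, against 14.59 and 14.58 in WT. The values overlapped in both, with intervals from -0.15 to 0.15 in cardiomyocytes and from -0.20 to 0.17 in hearts. Without KD heart replicate 1 the heart difference was 9e-04.

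Tpm1, the alpha tropomyosin that lies along actin, read 13.51 and 13.48 in KD hearts, against 13.80 and 13.64 in WT hearts. The KD hearts were both below the WT hearts, and the difference was -0.22 (SE 0.098, interval -0.44 to -0.01), with -0.24 without KD heart replicate 1 and -0.15 without WT heart replicate 1. Tnnt2, cardiac troponin T, which ties the troponin complex to tropomyosin, read 14.02 and 14.03 in KD hearts, against 14.28 and 14.16 in WT hearts. It differed by -0.19 (SE 0.093, interval -0.40 to 0.0075), with -0.19 without KD heart replicate 1 and -0.13 without WT heart replicate 1. Neither passed limma's test over all genes. In cardiomyocytes Tpm1 differed by 0.04 (SE 0.080) and Tnnt2 by 0.01 (SE 0.076).

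Tnni3, cardiac troponin I, the inhibitory subunit, lay on opposite sides in the 2 kinds of sample. It read 13.72, 13.74 and 13.75 in KD cells, against 13.69, 13.72 and 13.66 in WT cells, so the KD arrays were all above the WT arrays by small steps. In hearts it read 12.53 and 12.63 in KD, below the 12.65 and 12.65 of WT. The differences were 0.05 (SE 0.073) in cardiomyocytes and -0.07 (SE 0.090) in hearts, or -0.02 without KD heart replicate 1. Tnnc1, the calcium-binding troponin C of heart and slow muscle, read 13.16, 13.13 and 13.14 in KD cells, against 13.14, 13.09 and 13.05 in WT cells. Those overlapped at 1 WT array, and the difference was 0.05 (SE 0.076). In hearts Tnnc1 differed by -0.08 (SE 0.094), or -0.02 without WT heart replicate 1.

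The skeletal troponin T genes and nebulin differed by less than 0.1. Tnnt1, of slow muscle, differed by 0.02 (SE 0.11) in cardiomyocytes and 0.07 (SE 0.14) in hearts. Tnnt3, of fast muscle, differed by 0.02 (SE 0.13) and 0.08 (SE 0.16). Neb, the thin filament ruler of skeletal muscle, differed by 0.04 (SE 0.12) and -0.04 (SE 0.14). In hearts Neb lay at percentiles 30 to 33.3 of all genes within an array and Tnnt1 at 43.1 to 48.1, so both were dim there. Lmod2, a leiomodin that lengthens thin filaments, and Fhod3, a formin that assembles actin in heart muscle, differed by 0.02 (SE 0.14) and 0.06 (SE 0.13) in cardiomyocytes and by -0.06 (SE 0.17) and -0.10 (SE 0.16) in hearts. Of these 5 genes Fhod3 in hearts had the interval that reached farthest, to -0.45.

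Of the titin and M-band genes, 3 of 4 were lower in KD in each kind of sample, with medians of -0.04 in cardiomyocytes and -0.21 in hearts, where it was -0.11 without KD heart replicate 1 and -0.12 without WT heart replicate 1. In this group of 4 the 2 KD hearts had nearly the same mean, at -0.20 and -0.19 relative to WT, against 0.10 and -0.10 in the WT hearts. The mean of KD heart replicate 2 rested mainly on Myom2, which differed by -0.74 without KD heart replicate 1. The other genes then lay between -0.14 (Ttn) and 0.20 (Myom3), so the 2 KD hearts were not alike gene by gene. Myom2, the M-protein that cross-links thick filaments, read 11.27 and 10.72 in KD hearts, against 11.72 and 11.22 in WT hearts. The groups overlapped there, with KD heart replicate 1 above WT heart replicate 2, and replicate 1 above replicate 2 in each genotype. The difference was -0.47 (SE 0.21, interval -0.92 to -0.03), or 1.39-fold lower in KD. It was -0.74 without KD heart replicate 1, -0.20 without KD heart replicate 2, -0.22 without WT heart replicate 1 and -0.72 without WT heart replicate 2. In cardiomyocytes Myom2 read 11.84, 11.64 and 11.58 in KD, against 11.64, 11.71 and 12.07 in WT, which overlapped.

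Ttn, the giant spring protein, read 10.77 and 10.97 in KD hearts, against 11.20 and 11.03 in WT hearts. Both KD hearts were below both WT hearts, by -0.24 (SE 0.12, interval -0.51 to 0.02), by -0.14 without KD heart replicate 1 and by -0.16 without WT heart replicate 1. In cardiomyocytes it read 12.12, 12.12 and 12.07 in KD, against 12.03, 12.29 and 12.12 in WT, and the difference was -0.05 (SE 0.099). Myom1, the myomesin found in all striated muscle, differed by -0.04 (SE 0.12) in cardiomyocytes and -0.19 (SE 0.15) in hearts, the heart value being -0.09 without KD heart replicate 1 and -0.08 without WT heart replicate 1. Myom3, a myomesin known from skeletal muscle, was the exception of the group in direction and in level. In cardiomyocytes it lay at percentiles 46.9 to 50.6 of all genes within an array, and Ttn at 99.3 to 99.5. It read 6.12, 6.30 and 6.14 in KD cells, all above the 6.03, 6.11 and 6.06 of WT cells, a difference of 0.12 (SE 0.098), or 0.06 without KD cardiomyocyte replicate 2. In hearts it differed by 0.11 (SE 0.12), or 0.02 without KD heart replicate 2.

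The Z-disc genes spread to both sides. Of 13 members 9 were lower in KD in each kind of sample, with medians of -0.03 in cardiomyocytes and -0.10 in hearts, or -0.02 without KD heart replicate 1. KD heart replicate 1 had a group mean of -0.21 and KD heart replicate 2 of 0.05, relative to WT. Csrp3, muscle LIM protein, which binds alpha-actinin, read 11.76 and 11.83 in KD hearts, below the 11.94 and 12.03 of WT hearts. That was a difference of -0.19 (SE 0.10, interval -0.41 to 0.03), and -0.16 without KD heart replicate 1. In cardiomyocytes it read 12.02, 12.02 and 12.10 in KD, above the 11.99, 12.01 and 11.89 of WT, a difference of 0.08 (SE 0.083), or 0.04 without WT cardiomyocyte replicate 3.

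Pdlim5, a PDZ and LIM protein that binds alpha-actinin, read 11.83 and 11.73 in KD hearts, against 12.16 and 11.87 in WT hearts. Both KD hearts were below both WT hearts, by -0.24 (SE 0.13, interval -0.51 to 0.04), by -0.29 without KD heart replicate 1 and by -0.09 without WT heart replicate 1. Nebl, nebulette, which links thin filaments to the Z-disc of heart muscle, read 10.73 and 10.76 in KD hearts, against 10.95 and 10.99 in WT hearts. It differed by -0.23 (SE 0.14), or -0.22 without KD heart replicate 1. In this probe set its values within a genotype lay closer together than the gap between genotypes. The second, dimmer probe set of Nebl did not bear this out. It read 8.005 and 7.71 in KD hearts, against 8.12 and 7.88 in WT hearts, and the genotypes overlapped. Both genes overlapped in cardiomyocytes, with differences of 6e-04 (SE 0.10) for Pdlim5 and -0.02 (SE 0.11) for Nebl.

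Tcap, telethonin, which caps the Z-disc end of titin, had the highest difference of any member in cardiomyocytes. It read 10.78, 10.79 and 10.77 in KD cells, against 10.75, 10.68 and 10.41 in WT cells. The KD arrays were above all WT arrays, and WT replicate 3 lay farthest below them. The difference was 0.17 (SE 0.13, interval -0.11 to 0.44), and 0.07 without WT cardiomyocyte replicate 3. Pdlim3, a second PDZ and LIM protein of the Z-disc, had the lowest difference in cardiomyocytes, with 8.14, 9.21 and 9.24 in KD cells, against 9.16, 9.49 and 8.87 in WT cells. The genotypes overlapped, and the value of -0.31 (SE 0.25) rested on KD replicate 1, and without it the difference was 0.05. In hearts Pdlim3 read 8.86 and 9.11 in KD, both below the 9.12 and 9.30 of WT. That difference was -0.22 (SE 0.30, interval -0.88 to 0.43), with -0.10 without KD heart replicate 1 and -0.14 without WT heart replicate 2.

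Actn2, the alpha-actinin of heart muscle, read 12.79, 12.76 and 12.77 in KD cells, against 12.63, 12.89 and 12.86 in WT cells. In hearts it read 12.91 and 13.03 in KD, against 13.14 and 12.99 in WT. Both sets overlapped, with differences of -0.02 (SE 0.092) and -0.10 (SE 0.11), the second being -0.03 without KD heart replicate 1 and -0.02 without WT heart replicate 1. Myot, myotilin, was the member that varied most among hearts, at 8.33 and 9.28 in KD, against 8.27 and 9.003 in WT, a difference of 0.17 (SE 0.28). That value took either sign when arrays were left out, at 0.64 without KD heart replicate 1 and -0.30 without KD heart replicate 2. In each genotype heart replicate 2 read above heart replicate 1. In cardiomyocytes Myot differed by 0.08 (SE 0.23). The other Z-disc members differed by between -0.13 (Cmya5, myospryn) and -0.0080 (Ldb3, the PDZ protein cypher) in cardiomyocytes, among them Des, desmin, at -0.11, Flnc, filamin C, at -0.12, Synpo2l, an alpha-actinin binding protein, at -0.12, and Myoz2, calsarcin, at -0.05. Without WT cardiomyocyte replicate 3 Cmya5 was at -0.02 and Des at -0.04. In hearts Ldb3 differed by -0.14, Myoz2 by -0.12, Flnc by -0.08, Cmya5 by -0.02, Des by 0.04 and Synpo2l by 0.08. All of these intervals included zero.

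**Figure D3:**
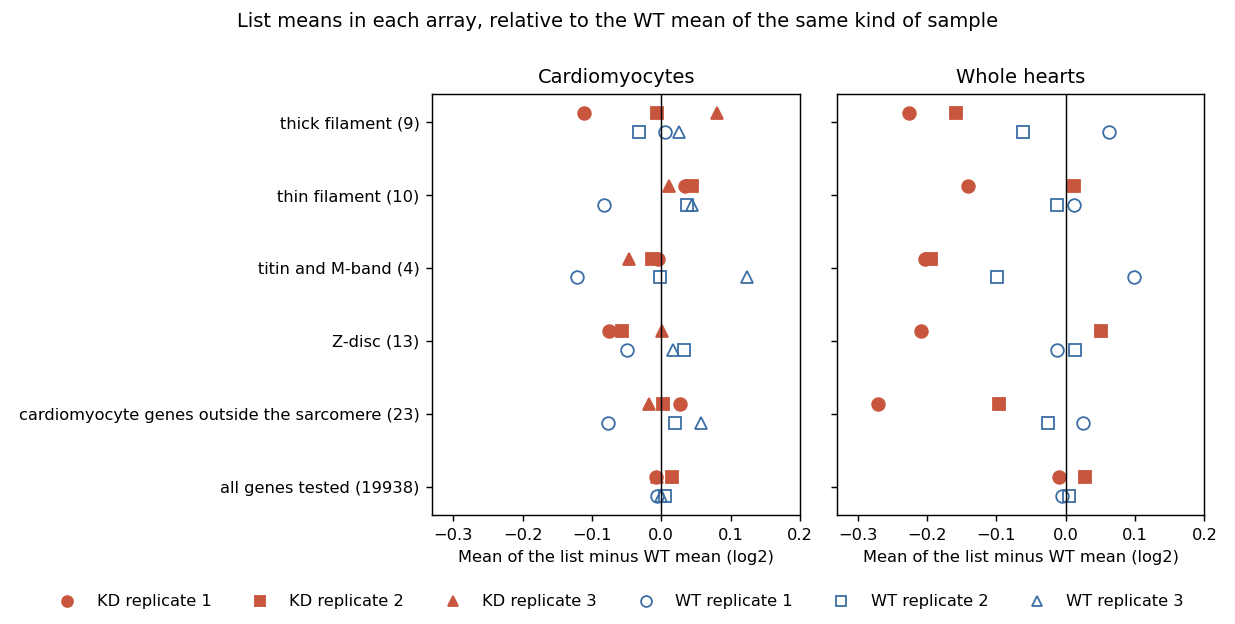
Mean of each filament group, of 23 cardiomyocyte genes outside the sarcomere and of all genes, in every array, as the difference from the WT mean of the same kind of sample (log2, horizontal axis); KD arrays are filled red and lie above the open blue WT arrays. In hearts the thick filament and titin groups are lower in both KD arrays, at -0.23 and -0.16 and at -0.20 and -0.19. The titin group mean of KD replicate 2 rests mainly on Myom2. Thin filament and Z-disc genes are lower in KD replicate 1 alone.

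The difference between the genotype effects of the 2 kinds of sample was tested directly, as the heart effect minus the cardiomyocyte effect. No member passed (smallest adjusted p from limma 0.999), as 0% of all genes passed. The value was below zero in 28 of 36 members (77.8%, against 48.8% of all genes), with a median of -0.10 against 0.0052 over all genes. Of 23 cardiomyocyte genes outside the sarcomere 19 were below zero, with a median of -0.20, so the lean was not particular to the members. At an unadjusted p under 0.05, 1 member (Mylk4) was below zero and 0 were above, where 1.74% of all genes were below and 1.76% above. Mylk4 gave -0.64 (SE 0.19, interval -1.05 to -0.23, unadjusted limma p 0.00482). Without KD heart replicate 1 no member passed either.

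The heart differences moved with brightness across the whole array, and most members are bright. A loess curve of KD minus WT on mean intensity lay between 0.05 at the intensity of Neb and -0.15 at that of Actc1 among the members. After this curve was subtracted, 20 members were lower and 16 higher in KD hearts, with a median of -0.0096. Mylk4 was then at -0.63, Myom2 at -0.36, Mylk3 at -0.15, Ttn at -0.14, Mybpc3 at -0.12, Tpm1 at -0.08 and Tnnt2 at -0.05. Actc1 and Myl2, near zero before, were then at 0.13 and 0.14. In cardiomyocytes the curve lay between 0.0016 and 0.03 at the members.

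**Figure D4:**
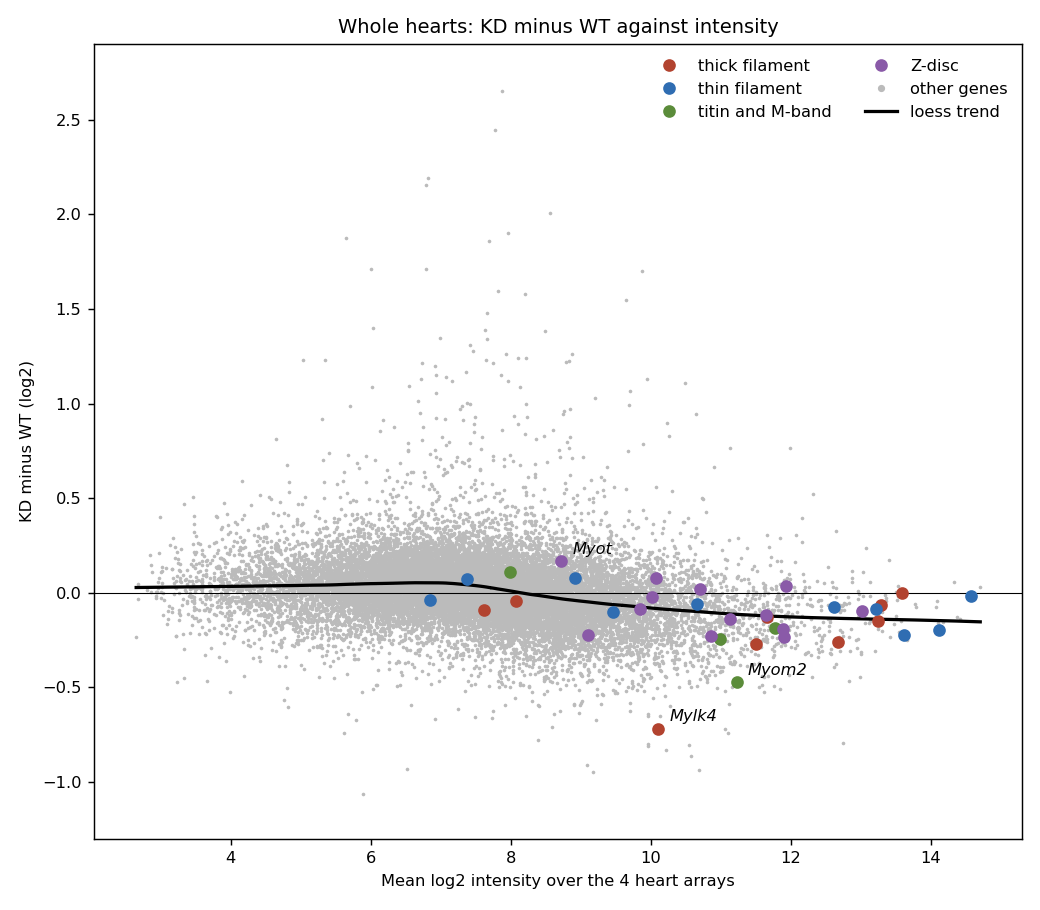
Difference between KD and WT hearts (log2, vertical axis) against the mean log2 intensity over the 4 heart arrays (horizontal axis) for all 19938 genes (grey) and the 36 members (coloured by filament), with the loess curve in black. The curve falls below zero for bright genes, most members lie near it, and Mylk4 and Myom2 lie well under it.

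The neighbouring gene lists placed these values. Of 23 cardiomyocyte genes outside the sarcomere, such as those of calcium handling and mitochondria, 21 were lower in KD hearts, with a median of -0.20, which is farther from zero than that of the sarcomere members. Their array means were -0.27 and -0.10 in the KD hearts, against 0.03 and -0.03 in the WT hearts. Tnni3k, a kinase that binds troponin I, differed by -0.32 (SE 0.13), Casq2, the calcium store protein, by -0.32 (SE 0.13), and Ckmt2, mitochondrial creatine kinase, by -0.28 (SE 0.12). In cardiomyocytes the list had 14 higher and 9 lower, with a median of 0.02. When hearts were centred on this list, 12 members were lower and 24 higher, with a median of 0.09, and Mylk4 remained lower at -0.53.

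Among genes that work on the sarcomere, the other M-band genes and the assembly genes all lay on 1 side in hearts. All 8 other M-band genes measured were lower in KD hearts, with a median of -0.18, and their array means were -0.29 and -0.13. Trim63 and Trim55, the muscle RING finger ubiquitin ligases of the M-band, differed by -0.38 (SE 0.13) and -0.43 (SE 0.15), and Fhl2, a LIM protein, by -0.23 (SE 0.10). In cardiomyocytes that list had 4 higher and 4 lower. All 11 genes of myofibril assembly and quality control were lower in KD hearts, with a median of -0.15 and array means of -0.20 and -0.14. Unc45b, the myosin chaperone, differed by -0.43 (SE 0.17) and Klhl41, a kelch protein that stabilises nebulin, by -0.32 (SE 0.12). In cardiomyocytes 6 of that list were higher and 5 lower. None of these genes passed limma's test over all genes.

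The remaining muscle lists were mixed. Of 14 other thick filament genes 6 were lower in KD hearts (median 0.02) and 11 in cardiomyocytes (median -0.03). Of 15 other thin filament genes 8 were lower in hearts and 6 in cardiomyocytes, and of 22 other Z-disc and costamere genes 12 and 12. Ankrd23, an ankyrin repeat protein that binds titin, differed by -0.38 (SE 0.14) in hearts. Among 14 transcription factors and regulators of sarcomere genes 10 were lower in each kind of sample, with medians of -0.02 in hearts and -0.08 in cardiomyocytes. Mrtfa, a coactivator of serum response factor, differed by 0.25 (SE 0.11) in hearts and -0.15 (SE 0.092) in cardiomyocytes. Myh7, the beta myosin heavy chain, differed by -0.14 (SE 0.16) in hearts and -0.08 (SE 0.13) in cardiomyocytes. Some genes stand in more than 1 list.

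None of the markers of other cells passed limma's test in hearts (smallest adjusted p 0.95), and their lists leaned to different sides. All 10 endothelial markers were lower in KD hearts (median -0.21), 9 of 10 fibroblast markers (median -0.22), 9 of 10 atrial markers (median -0.54) and 8 of 10 smooth muscle and pericyte markers (median -0.12). The endothelial array means were -0.17 and -0.20 in KD hearts, and the fibroblast array means 0.05 and -0.29, the first of them raised by Thy1. The 1 fibroblast marker that was higher, Thy1, read 10.55 and 8.45 in KD hearts, against 8.14 and 8.34 in WT hearts. Its high value was thus in the array with the thymocyte signal, so the 0.05 is no measure of the other fibroblast markers there. Thymocyte markers were higher in 11 of 12, with a median of 1.45, which rested on KD heart replicate 1 as given above. Skeletal muscle markers were higher in 14 of 17, with a median of 0.08. Most of those were dim, at intensities where the loess curve itself lay above zero. The brightest, Eno3 and Acta1, differed by -0.19 and 0.16. Macrophage markers had 7 of 11 higher, with a median of 0.02. In cardiomyocytes 10 of 11 macrophage markers were lower in KD (median -0.26). Their array means were -0.28, -0.19 and -0.27 in KD cells, against -0.07, -0.24 and 0.32 in WT cells, so WT replicate 2 lay among the KD arrays. Several were dim, with Adgre1, Cd163, Mrc1 and Aif1 below the array median in every cardiomyocyte array. The other of these lists had medians from -0.11 to 0.0040 in cardiomyocytes. The part of any of these in the members' values was not tested.

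How the members' levels compared between isolated cardiomyocytes and hearts depended on the scaling. The array medians were 5.82 to 5.93 in cardiomyocytes and 7.25 to 7.31 in hearts, and the labels name different labelling manuals, so no test was made across them. As deposited, 14 of 36 members were higher in WT cardiomyocytes than in WT hearts, with a median difference of -0.09 against -1.203 over all genes. Relative to each array's median 34 of 36 were higher, with a median of 1.23 against 0.12. After quantile normalization of all arrays together 25 were higher, with a median of 0.37 against 0.01. Under each of the 3 scalings the members' median was above that of all genes.

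Individual members ranged widely in that comparison. Myot was higher in WT cardiomyocytes by 1.41 as deposited, 2.74 relative to the array median and 2.14 after quantile normalization. Tnni3 was higher by 1.04, 2.36 and 1.52, and Ttn by 1.03, 2.36 and 1.47, in the same order of scalings. Tnnt3, fast skeletal troponin T, was lower by each scaling, at -1.92, -0.59 and -0.98, and so was Myom3, at -1.86, -0.54 and -0.62. Mylk3 was lower as deposited (-1.27) and after quantile normalization (-0.84), and was at 0.05 relative to the array median.

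**Figure D5:**
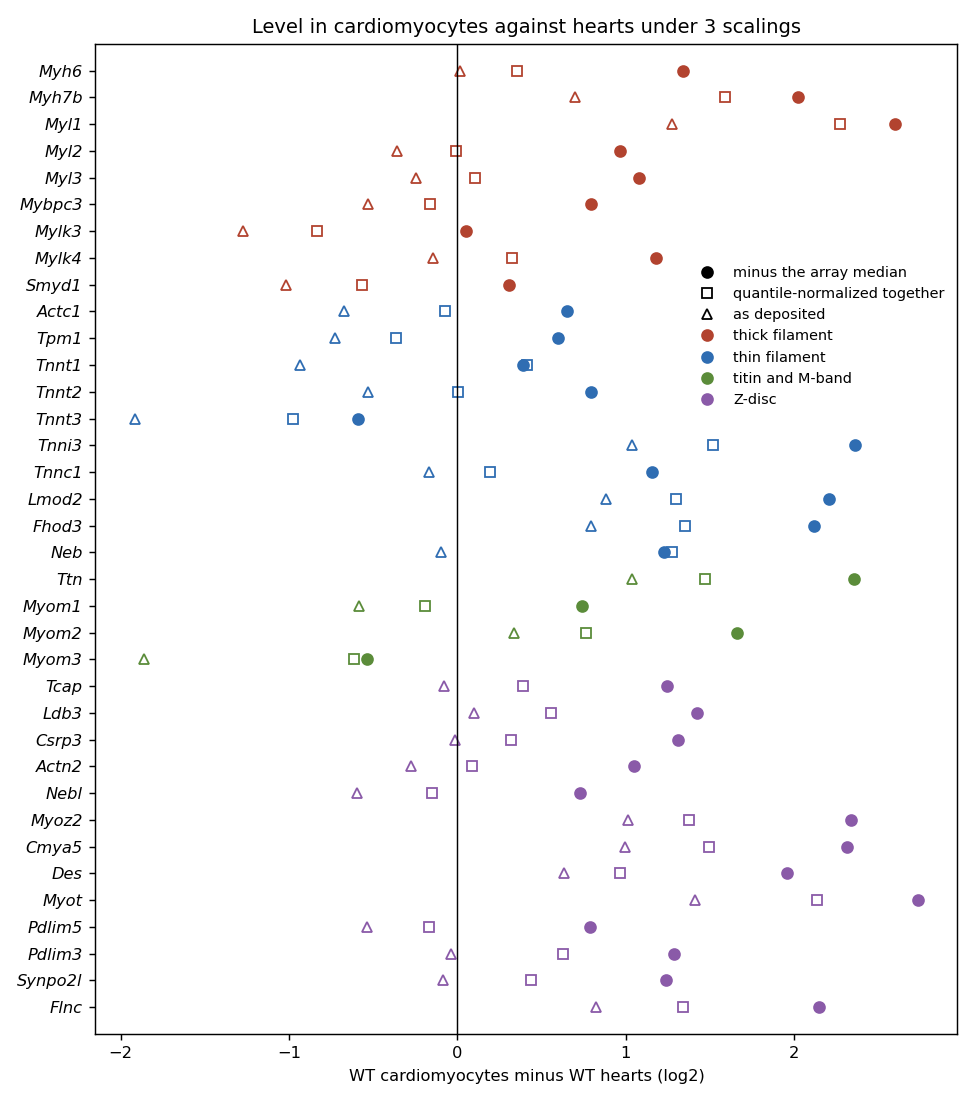
Level in WT cardiomyocytes minus level in WT hearts (log2, horizontal axis) for each member under 3 scalings (filled circles, relative to the array median; squares, quantile-normalized together; triangles, as deposited), coloured by filament. The scaling moves every member, with 34 of 36 above zero relative to the array median and 14 of 36 as deposited; Tnnt3 and Myom3 lie below zero under all 3.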

How the data were processed

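The values were log2 intensities deposited by the authors for 35556 probe sets on 10 arrays. Per the submitters' processing notes the tools were RMA (background correction, normalization between arrays, probe summary) and Partek; their versions are not stated in the sources used here. RMA compresses differences of dim probes. In the platform annotation 21789 probe sets carried 1 gene symbol; the 1621 with several and the 12146 with none listed were left out. Per gene the brightest probe set over the 10 arrays was kept, which gave 19938 genes. Of the members only Nebl had a second probe set. No detection calls and no filter were used.

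All arrays entered 1 fit in limma 3.58.1 (R 4.3.3) with 4 group means and an intensity trend in eBayes (6 residual and 6.81 prior degrees of freedom). It gave KD minus WT in cardiomyocytes, KD minus WT in hearts, and the difference of both, tested two-sided at an adjusted p of 0.05 (Benjamini-Hochberg, all genes). Permuting 3 against 3 arrays has a smallest two-sided p of 0.1, so limma's shared spread was used. The code was tested on simulated data. The number of arrays limits the precision. Replicates correlated at 0.992 to 0.995 within cardiomyocyte groups, 0.98 in KD hearts and 0.993 in WT hearts.

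The members and lists were chosen with earlier results of these data known. Array values are given, by filament and kind of sample, for the 2 members with the smallest p, the brightest member, and members separated in both kinds of sample; those of Nebl, Myl1, Myot and, in hearts, Pdlim3 were chosen after seeing them. Alternatives were quantile normalization, centring on array medians or on other cardiomyocyte genes, removal of a loess trend (span 0.3), dropping dim genes, averaging probe sets, separate fits by kind of sample, array weights, eBayes without a trend or robust, the replicate number as a block, an adjusted p of 0.1, and each array left out.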

Additional observations from a re-analysis of the deposited data

Results flagged for a closer look

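Tnni3 and Csrp3 had every KD array above every WT array in cardiomyocytes and every KD array below every WT array in hearts. In Tnni3 the heart effect minus the cardiomyocyte effect was -0.12 (SE 0.12), with an unadjusted p from limma of 0.312 and an adjusted p of 0.999. In Csrp3 it was -0.27 (SE 0.13), with an unadjusted p from limma of 0.0618 and an adjusted p of 0.999. Neither difference between the kinds of sample passed the test. Among the 36 members 2 had arrays separated in opposite directions in the 2 kinds of sample, and 0 had them separated in the same direction in both. Taken alone, KD above WT in cardiomyocytes held for 2.99% of all genes, and KD below WT in hearts for 15.4%. How many of all genes were separated in both kinds of sample was not counted, so whether 2 of 36 is unusual cannot be said.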

How the results depend on the processing

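The count of members called was 0 in each contrast under every alternative run, an adjusted p of 0.1 included. In hearts the members' median difference was 0.0887 when arrays were centred on other cardiomyocyte genes, where the median of all genes was 0.19, and -0.0096 with the loess trend removed. It ranged from -0.192 to -0.0199 when arrays were left out one at a time. Centring on other cardiomyocyte genes turned the heart medians of the thick filament, thin filament and Z-disc groups to 0.0558, 0.116 and 0.0869, and removal of the loess trend turned those of the thin filament and Z-disc groups to 0.0338 and 0.0072. Quantile normalization turned the thin filament one to 0.0089 and brought that of all members to -0.0334. Leaving out arrays gave heart medians of the thin filament group from -0.121 to 0.0214, and cardiomyocyte medians of the titin and M-band group from -0.114 to 0.0522. The difference in Mylk4 in hearts kept its sign throughout, at -0.94 to -0.50, with adjusted p-values from limma between 0.118 and 1. Over the arrays left out of their own kind of sample, 18 of 36 members kept their sign in hearts (17 lower, 1 higher) and 14 in cardiomyocytes (7 lower, 7 higher). Without KD heart replicate 2, 303 of all genes were called, and 0 members. Where 1 array was left in a group, its spread was taken from the other groups.

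Whether replicate numbers paired the arrays could not be settled. Over all genes, deviations of same-numbered arrays correlated at 0.15, 0.13 and -0.05 in cardiomyocytes and at 0.23 in hearts. With 2 arrays per group the hearts give only 1 such value. Some members moved with the replicate number in both heart genotypes, as Myot did at 8.33 and 9.28 in KD and 8.27 and 9.003 in WT. Others, such as Myl2, did not. The replicate block called 0 members in each contrast, with a smallest adjusted p from limma of 0.513 among members in hearts, against 0.713 without it. The number of arrays, and not a measured depth, limits what could be seen: at the median interval a member's difference under 1.18-fold in cardiomyocytes and 1.23-fold in hearts was within the error.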
